A study of Mus musculus with 3 samples.

Results

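The proteasome genes were taken as the gene symbols that begin with *Psm*, one of the letters a to g, and a digit. Of 27998 genes listed, 50 matched, and 48 of these had at least 100 unique molecular identifiers (UMIs, each counting 1 captured RNA molecule) summed over the 3 deposited matrices. The least abundant gene kept was *Psme2b* with 3087 UMIs, and the genes left out were *Psma8* with 4 and the thymus subunit *Psmb11* with 1. By role, the 48 genes were 7 of the 20S alpha ring (*Psma1* to *Psma7*), 7 of the 20S beta ring (*Psmb1* to *Psmb7*), the 3 immune beta subunits (*Psmb8*, *Psmb9* and *Psmb10*), 6 ATPases of the 19S particle (*Psmc1* to *Psmc6*), 11 other 19S subunits (*Psmd1* to *Psmd4*, *Psmd6* to *Psmd8* and *Psmd11* to *Psmd14*), 4 chaperones of 20S assembly (*Psmg1* to *Psmg4*), 3 chaperones of 19S assembly (*Psmd5*, *Psmd9* and *Psmd10*), 4 activators (*Psme1* to *Psme4*) and the inhibitor *Psmf1*. *Psmc3ip*, which encodes a recombination factor and no subunit, and *Psme2b*, a retrogene copy of *Psme2* whose reads cannot be assigned with certainty, were the remaining 2. The 31 ring and 19S subunits outside the immune group are called constitutive here.

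The samples were small intestinal epithelium sorted on the surface protein EpCAM and profiled by droplet single cell RNA-seq, with 1 mouse and 1 library per genotype. One library was from a mouse labelled WT at day 21 after tamoxifen, one from a mouse with *Lgr5-CreERT2* and *Apc fl/fl* (*LApc*) at day 29, and one from a mouse that carried *Lef1 fl/fl* beside both of these alleles (*LApcL*) at day 21. All were C57BL/6 mice of 7 to 8 weeks that the labels list as given 2 doses of 2 mg tamoxifen, and the study compared them to ask what *Lef1*, a transcription factor of the Wnt pathway, does in tumours that follow loss of *Apc*. Because the *Lgr5* promoter drives the recombinase in stem cells, normal epithelium remained beside adenoma in both mutant mice, and since each genotype was 1 mouse, genotype, mouse and library cannot be told apart, nor can genotype and day for *LApc*.

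The proteasome degrades proteins tagged with ubiquitin. Its 20S core is a barrel of alpha and beta rings with the proteolytic sites inside, and the 19S particle binds, unfolds and threads the substrate. After interferon, and at a basal level in lymphoid cells and gut epithelium, *Psmb8*, *Psmb9* and *Psmb10* replace the catalytic subunits encoded by *Psmb5*, *Psmb6* and *Psmb7* to form the immunoproteasome, which cuts peptides suited to MHC class I. *Psme1* and *Psme2* encode PA28, an activator ring also induced by interferon.

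After filtering, 10200 WT, 9619 *LApc* and 14485 *LApcL* cells remained, with medians of 9732.5, 6133 and 10144 UMIs per cell. Pairs of libraries shared 214 to 318 barcodes of 11453 to 17388. Cells were clustered without the proteasome genes and named from marker genes, so each name below means cells resembling that type. Cells with Wnt and transit-amplifying markers were divided into adenoma cells, from subclusters where WT made up under 10%, and crypt cells, the rest. There were 3053 WT, 2350 *LApc* and 1231 *LApcL* crypt cells, and 1305 *LApc* and 9494 *LApcL* adenoma cells, with 6 WT cells in those subclusters left unused. Adenoma cells are therefore defined in part by the library they came from. *Epcam* was present in every class, at 1011 to 2061 CPM (UMIs of a gene per 1000000 UMIs of the cells) outside Paneth cells. *Lef1* stood at 21.3 CPM in *LApc* adenoma, 3.52 in *LApcL* adenoma and 0.35, 0.73 and 1.52 in WT, *LApc* and *LApcL* crypt cells. *Apc* stood at 49.1 and 37.1 CPM in *LApc* and *LApcL* adenoma and at 18.97 to 21.97 in crypt cells, and counts from the 3′ end do not check a deletion elsewhere in the gene.

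With 1 library per genotype no test of a genotype is possible. Values carry exact 95% intervals that cover counting error only, and a difference between libraries may be one between mice. A gene was tested in a comparison where the mean of both cell sets was 20 CPM or more, and was called where one set exceeded the other by 25% or more. Counts of members are set beside the percentage of all genes tested that were called the same way. For counts under other scalings or cell sets that percentage is given only in part.

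In normal epithelium of WT the constitutive subunits were highest in crypt and tuft cells, and the immune subunits were highest in enterocytes. Summed over the 31 constitutive genes, WT crypt cells held 6571 CPM (6544 to 6598), tuft cells 6458 (6356 to 6560), enteroendocrine cells 5377 (5301 to 5454), enterocytes 5058 (5032 to 5083) and goblet cells 4664 (4641 to 4688). Crypt and tuft cells overlapped within their intervals, whereas each later class in that order lay below the one before by more than counting error. The immune subunits summed to 647 CPM (638 to 656) in WT enterocytes, 482 (475 to 489) in crypt, 446 (438 to 453) in goblet, 408 (387 to 430) in enteroendocrine and 391 (366 to 417) in tuft cells. Enteroendocrine and tuft cells were not separated on this sum. With ribosomal and mitochondrial genes left out of the total the constitutive order in WT was the same, but crypt cells at 10273 CPM stood clear of tuft cells at 8690. That scaling also put the immune sum of *LApc* higher in crypt cells (796 CPM) than in enterocytes (721), which stood at 496 and 545 CPM of all UMIs.

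Paneth cells stood far below the rest, at 789 CPM constitutive and 52.4 CPM immune in WT. Defensins and other Paneth products took 79.7% of their UMIs, against 0.81% to 1.97% in the other WT classes. With these products left out of the total, the constitutive sum in Paneth cells was 3884 CPM in WT, 3382 in *LApc* and 5025 in *LApcL*. Per cell, WT Paneth cells held 35.7 UMIs of constitutive subunits and WT crypt cells 73.9.

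The order of classes was the same in *LApc*, whereas in *LApcL* crypt cells came after tuft and enteroendocrine cells on the total of all UMIs. *LApc* crypt cells held 5593 CPM, tuft 5243, enteroendocrine 4229, enterocytes 3906 and goblet 3259, all below the WT values. *LApcL* tuft cells held 6637 CPM, enteroendocrine 6122, crypt 5886, enterocytes 4835 and goblet 4450. Without ribosomal and mitochondrial genes that order turned, with crypt cells of *LApcL* first at 9976 CPM, tuft at 8916 and enteroendocrine at 8375. In adenoma cells the sum was 7129 CPM (7077 to 7181) in *LApc* and 7269 (7254 to 7285) in *LApcL*, above every normal class of any library on this scale. Without ribosomal and mitochondrial genes *LApcL* adenoma cells were still highest at 11122 CPM, but *LApc* adenoma cells at 10122 lay below WT crypt cells at 10273.

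**Figure D1:**
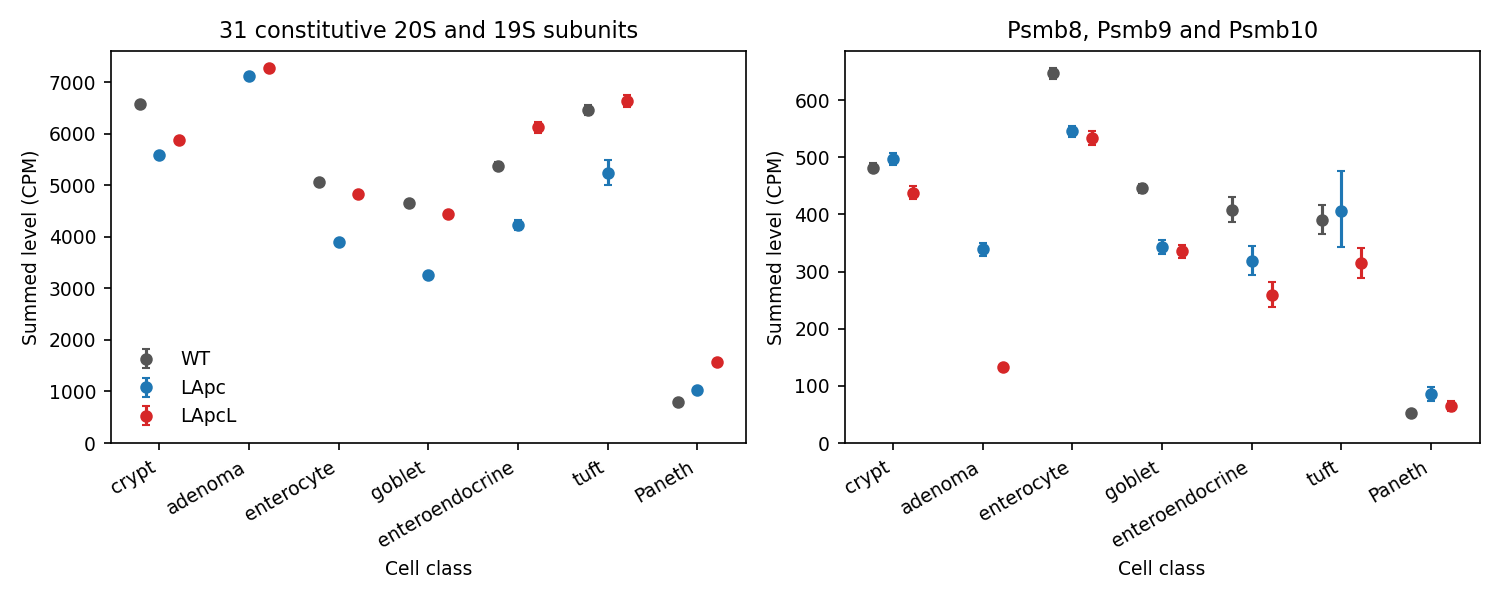
Summed level in CPM (y axis) of the 31 constitutive 20S and 19S subunits (left) and of *Psmb8*, *Psmb9* and *Psmb10* (right) in each cell class (x axis), with points for WT, *LApc* and *LApcL* and bars for 95% counting intervals. On this total of all UMIs adenoma cells are highest on the left at 7129 and 7269 CPM, though without ribosomal and mitochondrial genes WT crypt cells lie above *LApc* adenoma cells, and on the right *LApcL* adenoma cells lie at 133 CPM, below all but the Paneth cells.

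Along the axis from crypt to enterocyte in WT, 22 of 31 constitutive subunits were higher in crypt cells past that limit and 0 were lower, where 38.3% of 5022 genes tested were higher and 33.2% lower. The median log2 ratio of crypt over enterocyte was 0.35 for the 31 and 0.06 for all genes. The clearest group was the 20S assembly chaperones, which pair and order the alpha subunits before the ring closes. *Psmg2* was 50.5 CPM in crypt cells and 14.9 in enterocytes (log2 ratio 1.76, 1.61 to 1.92), *Psmg3* 87.6 and 28.0 (1.64) and *Psmg4* 92.2 and 34.9 (1.40), and with *Psmg1* at 57.7 and 24.2 (1.252) all 4 were over 2-fold higher. In all genes tested, 13.6% were higher by 2-fold or more. *Psmg2*, under 20 CPM in enterocytes, was tested through its crypt cells. *Psmg4* was also high in tuft cells, at 151, 160 and 134 CPM in WT, *LApc* and *LApcL*.

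Among members tested, the lowest ratios on this axis were those of interferon-inducible genes. *Psmb8* was 125 CPM in crypt cells and 188 in enterocytes (log2 ratio −0.60, −0.65 to −0.54), *Psmb9* 99.95 and 122 (−0.29) and *Psmb10* 257 and 336 (−0.39). *Psme2* was 412 and 525 CPM (−0.35), *Psme1* 297 and 320 (−0.11) and *Psme4*, which encodes the nuclear activator PA200, 36.8 and 37.7 (−0.03). *Psme3*, encoding the nuclear PA28 gamma, went the other way, with 76.8 and 48.6 CPM (0.66). With the total taken without ribosomal and mitochondrial genes *Psme1* turned to higher in crypt cells (0.14), and 30 of 31 constitutive subunits were higher. With TMM scaling 5 of 31 were, while the all-gene median shifted by −0.20 to −0.14. In cells with little expression of cell cycle genes 11 of 31 were, and among cells under 10% mitochondrial UMIs 14. The shares of all genes called under these alternatives are not given.

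Of the 3 immune subunits, *Psmb8* and *Psmb9* lie close together in the genome and *Psmb10* lies on another chromosome. On GRCm38 *Psmb8* (ENSMUSG00000024338) lies at chr17:34197721-34201454 on the plus strand and *Psmb9* (ENSMUSG00000096727) at chr17:34181987-34187764 on the minus strand, both in the MHC class II region. *Psmb10* (ENSMUSG00000031897) lies at chr8:105935735-105938444 on the minus strand. Their counterparts are *Psmb5* (ENSMUSG00000022193) at chr14:54614119-54618022 minus, *Psmb6* (ENSMUSG00000018286) at chr11:70525367-70527858 plus and *Psmb7* (ENSMUSG00000026750) at chr2:38588036-38644087 minus. *Psmb9* is read away from *Tap1*, a pump that loads peptides for class I, and the 300-base windows at the starts of both genes share 275 bases on opposite strands.

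Promoter windows of 250 bases upstream of RefSeq starts (GRCm38.p6) were read for short motifs on both strands, since interferon and stress factors are known regulators of these groups. The motifs were the interferon response element (GAAA, any 2 bases, GAAA), the gamma-activated site TTCNNNGAA, the antioxidant element TGACNNNGC bound by factors of the *Nfe2l1* and *Nfe2l2* family, and CCAAT. Of 41 members in the table, 3 held the first (*Psmb3*, *Psmd4* and *Psmd9*), 2 the second (*Psmb8* and *Psmg1*), 5 the third (*Psmb5*, *Psmb6*, *Psmc6*, *Psmd12* and *Psmd9*) and 14 the fourth. Over 32851 windows of all genes the shares were 2.98%, 7.02%, 10.2% and 33.9%, so these letters are common and a match is a description only. The matches of 2 immune subunits and of 2 catalytic counterparts are printed here 5′ to 3′ on the gene's strand, with the matched letters in capitals, because each immune subunit shown replaces the counterpart shown and their shares are compared later. Those of *Psmb8* (chr17:34198090-34198114), *Psmb9* (chr17:34187331-34187346, CCAAT read on the opposite strand), *Psmb5* (chr14:54618026-54618050) and *Psmb6* (chr11:70525340-70525356) read as below. The sites of *Psmb8* and *Psmb9* lie inside the gene spans given above, since those spans are from GENCODE and begin before the RefSeq starts used here, and both windows are wholly exonic in GENCODE.
Psmb8: ctccgctgTTCCCAGAAgatgcccc
Psmb9: agccgctgATTGGaaa
Psmb5: tgaagttgTGACGTCGCggcgttgc
Psmb6: aaagagagTGACGGAGC

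The longer stretches upstream of the constitutive *Psmb5* and the immune *Psmb10* are printed as examples and do not stand for their groups. The antioxidant element was held by 5 of 41 members. That of *Psmb5* (223 bases, chr14:54618023-54618245, minus strand) holds the antioxidant element in capitals near its end. That of *Psmb10* (198 bases, chr8:105938445-105938642, minus strand) holds none of the 4 motifs, which says only that these letters are not in this stretch.
Psmb5: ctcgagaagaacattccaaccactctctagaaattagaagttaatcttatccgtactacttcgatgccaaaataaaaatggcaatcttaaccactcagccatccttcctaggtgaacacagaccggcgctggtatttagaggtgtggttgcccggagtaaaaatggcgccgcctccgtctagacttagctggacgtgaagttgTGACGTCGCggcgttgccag
Psmb10: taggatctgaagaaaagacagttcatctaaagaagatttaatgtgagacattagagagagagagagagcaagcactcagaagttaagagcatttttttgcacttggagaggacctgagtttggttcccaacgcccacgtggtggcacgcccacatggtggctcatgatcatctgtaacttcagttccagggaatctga

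Next, adenoma cells were compared with crypt cells of the same mouse, where library, kit and day are shared. Depth per cell was not the same, with medians of 6821 UMIs in crypt and 7337 in adenoma cells of *LApc* and 9078 and 11366 in *LApcL*. As a set, the core and 19S genes were modestly higher in adenoma cells of both mice, with higher median ratios for the 19S than for the ring genes. In *LApc*, 19 of 31 constitutive subunits were higher past the 25% limit and 0 lower, with 38.5% of 5505 genes higher and 18.9% lower. In *LApcL*, 17 of 31 were higher and 0 lower, with 34.4% of 5094 genes higher and 11.5% lower. The median log2 ratio was 0.38 in *LApc* and 0.35 in *LApcL*, against 0.18 for all genes in each.

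The counts depended on scaling. With TMM they were 5 of 31 in *LApc* and 6 of 31 in *LApcL*, and without ribosomal and mitochondrial genes in the total they were 10 and 6. The ribosomal share of UMIs moved with the comparison, at 32.1% in crypt and 25.7% in adenoma cells of *LApc* and 35.8% and 30.6% in *LApcL*, and its part in the result was not tested. TMM shifted all ratios by −0.28 in *LApc* and −0.16 in *LApcL*, and under it the median of the 31 was 0.09 beside −0.11 for all genes in *LApc* and 0.18 beside 0.02 in *LApcL*. In *LApc* TMM also turned the calls over all genes to 22.02% higher and 34.4% lower. Such shares are not given for TMM in *LApcL* or for totals without ribosomal and mitochondrial genes. The constitutive sum stayed above crypt cells in all 11 alternatives in both mice.

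Among the constitutive roles, the 19S genes had the highest ratios. In *LApc* all 6 ATPases, which form the ring that unfolds the substrate, were higher past the limit (median log2 ratio 0.49), as were 8 of 11 other 19S subunits (0.46), 3 of 7 alpha (0.24) and 2 of 7 beta subunits (0.23). In *LApcL* the counts were 4 of 6 (0.36), 9 of 11 (0.41), 2 of 7 (0.30) and 2 of 7 (0.23). The alpha and beta counts are shares near or below the 38.5% of all genes higher in *LApc* and the 34.4% in *LApcL*. The 20S assembly chaperones did not share this direction, and 0 of 4 were higher past the fold in either mouse.

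Among single genes in *LApc*, the 3 highest ratios outside the immune group were those of *Psmc4*, a 19S ATPase (81.8 CPM in crypt and 141 in adenoma, log2 ratio 0.79, 0.68 to 0.90), *Psme4* (36.4 and 62.3, 0.78) and *Psmd8*, a lid subunit (127 and 211, 0.73). In *LApcL* they were *Psme4* (33.0 and 52.6 CPM, 0.67, 0.52 to 0.82), the lid subunit *Psmd12* (68.9 and 104, 0.60) and *Psmb5*, the chymotrypsin-like catalytic subunit (265 and 390, 0.56). *Psme4* was thus among the highest in both. The lowest in *LApc* were *Psmg3* (71.1 and 54.0 CPM, −0.40, −0.55 to −0.25), *Psme2* (372 and 299, −0.32) and *Psmg1* (51.3 and 41.5, −0.31). In *LApcL* they were *Psme1* (300 and 160 CPM, −0.90, −0.95 to −0.85), *Psme2* (386 and 207, −0.90) and *Psmg2* (47.1 and 40.8, −0.21).

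The catalytic counterparts were higher in adenoma cells of both mice. *Psmb5* was 255 CPM in crypt and 373 in adenoma cells of *LApc*, *Psmb6* 366 and 432, and *Psmb7* 207 and 266. In *LApcL*, *Psmb6* was 365 and 427 CPM and *Psmb7* 210 and 282. WT crypt cells held 314, 411 and 245 CPM of *Psmb5*, *Psmb6* and *Psmb7*, between the crypt and adenoma values of the mutant mice.

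The immune subunits were lower in adenoma than in crypt cells, far more so in *LApcL*. *Psmb8* was 155 CPM in crypt and 139 in adenoma cells of *LApc* (log2 ratio −0.16, −0.25 to −0.06), against 115 and 26.4 in *LApcL* (−2.12, −2.22 to −2.03). *Psmb9* was 104 and 71.5 CPM in *LApc* (−0.55) and 92.2 and 19.6 in *LApcL* (−2.24). *Psmb10* was 237 and 128 CPM in *LApc* (−0.88) and 231 and 87.3 in *LApcL* (−1.40). *Psmb9*, under 20 CPM in *LApcL* adenoma cells, was tested through its crypt cells. All 3 were lower by over 2-fold in *LApcL*, as were 2.98% of genes tested, and of 5094 genes only 46 had a lower ratio than *Psmb8*, 40 than *Psmb9* and 90 than *Psmb10*. In *LApc* none was 2-fold lower, where 4.45% of genes were.

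The direction in *LApcL* held in all 11 alternatives, from −2.29 to −1.53 for *Psmb8*, −2.40 to −1.74 for *Psmb9* and −1.57 to −1.17 for *Psmb10*. In *LApc* the small difference of *Psmb8* turned to 0.11 in cells with little cell cycle expression. *Psme1* in *LApc*, at 260 and 244 CPM (−0.09), likewise turned to 0.0060 there.

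**Figure D2:**
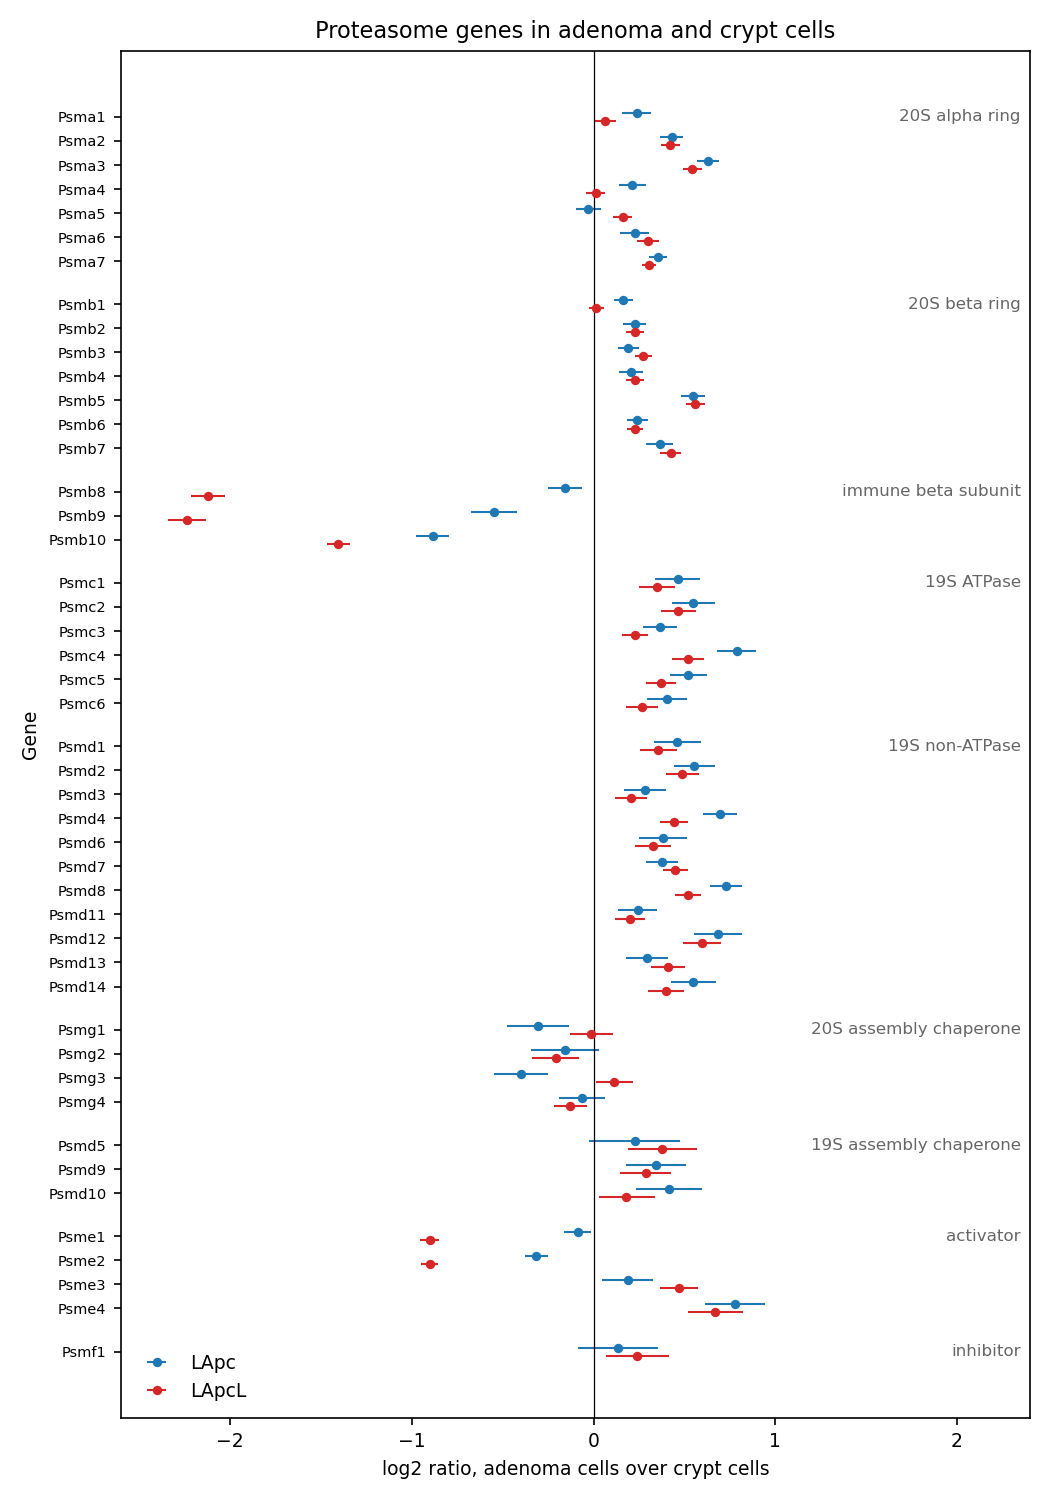
Log2 ratio of CPM in adenoma cells over crypt cells (x axis) for each proteasome gene tested in both mice (y axis, grouped by role), in *LApc* and *LApcL*, with 95% counting intervals. Most core and 19S genes lie right of 0 in both, and *Psmb8*, *Psmb9* and *Psmb10* lie left of 0, at −2.12, −2.24 and −1.40 in *LApcL*.

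The share of UMIs taken by the immune gene within each catalytic pair does not depend on how cells are scaled. It is a share of RNA counts and not of protein, and it is compared between cells only, since capture can differ between genes. Over the 3 pairs the immune share was 33.2% (32.8 to 33.6) in WT crypt cells, 37.5% (36.9 to 38.1) in *LApc* and 34.3% (33.5 to 35.1) in *LApcL*. In adenoma cells it was 24.0% (23.3 to 24.7) in *LApc* and 10.8% (10.66 to 10.99) in *LApcL*. Enterocytes had the highest share in every library, at 47.1%, 49.3% and 43.6% in WT, *LApc* and *LApcL*.

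Each pair showed the low share in *LApcL* adenoma cells. *Psmb8* took 27.2% of the UMIs of *Psmb8* and *Psmb5* in *LApc* adenoma cells and 6.34% (6.12 to 6.57) in *LApcL*, against 28.4% to 37.8% in the 3 sets of crypt cells. *Psmb9* took 14.2% and 4.38% beside *Psmb6*, against 19.6% to 22.2% in crypt cells. *Psmb10* took 32.5% and 23.7% beside *Psmb7*, against 51.2% to 53.4%. Every differentiated class of *LApcL*, goblet and Paneth cells included, also had a lower share over the 3 pairs than in the other libraries. Over the 3 pairs, enteroendocrine cells had 22.6% in *LApcL* against 33.8% in WT and 33.5% in *LApc*, and tuft cells had 23.8% against 28.0% and 34.4%.

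**Figure D3:**
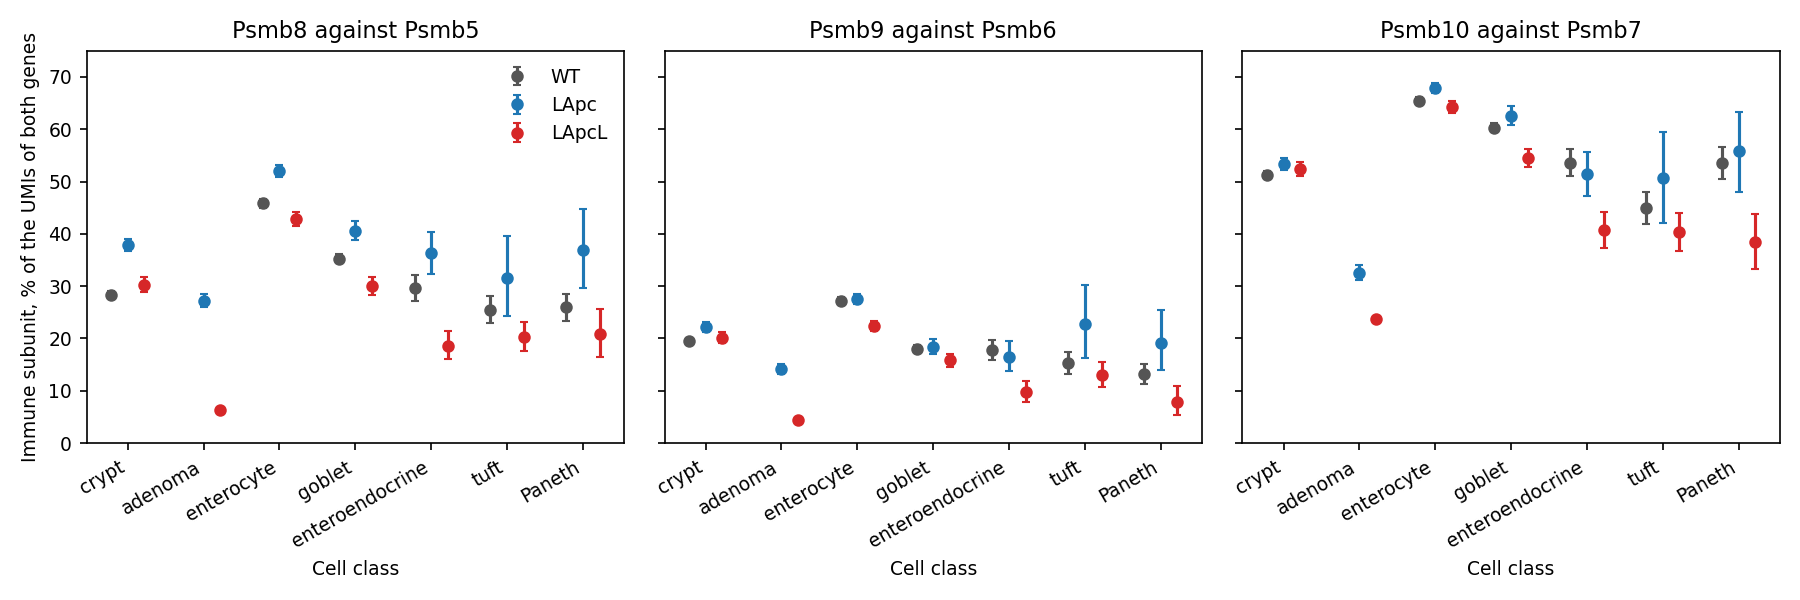
Share of the UMIs of a catalytic pair that came from the immune subunit (y axis, %), by cell class (x axis) and library, for *Psmb8* with *Psmb5*, *Psmb9* with *Psmb6* and *Psmb10* with *Psmb7*, with exact 95% binomial intervals. *LApcL* adenoma cells are the lowest point in each panel, at 6.34%, 4.38% and 23.7%.

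The same pattern was seen cell by cell after each cell was thinned to 3000 UMIs. *Psmb8* was detected in 28.1% of WT, 36.0% of *LApc* and 27.6% of *LApcL* crypt cells, in 25.9% of *LApc* adenoma cells and in 7.76% (7.23 to 8.32) of *LApcL* adenoma cells. Before thinning the values were 62.8%, 59.9%, 57.3%, 43.8% and 22.6%. Thinning left out 154 *LApc* and 5 *LApcL* crypt cells and 64 *LApc* and 50 *LApcL* adenoma cells that were shallower. No class is known to lack *Psmb8*, so no background level could be read, and the part of free RNA was not tested. Paneth cells of WT, *LApc* and *LApcL* stood at 4.65%, 6.82% and 7.98% after thinning and at 45.3%, 26.2% and 29.1% before it, and their own products took 68.6% to 79.7% of their UMIs. *Psmb5*, by contrast, was detected in 64.7% of *LApc* and 67.8% of *LApcL* adenoma cells.

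Directly between the adenoma cells of both mice, the constitutive genes hardly differed and the interferon-inducible ones did. Of the 31 constitutive subunits 0 were higher and 0 lower in *LApcL* past the 25% limit, while 12.6% of 5557 genes were higher and 22.6% lower, and the median log2 ratio of *LApcL* over *LApc* was 0.01 for the 31 and −0.06 for all genes. With TMM, which shifted ratios by 0.24 and turned the calls over all genes to 33.9% higher and 12.0% lower, 8 of 31 were higher. *Psmb8* was lower in *LApcL* by 5.27-fold (log2 ratio −2.40, −2.49 to −2.30), *Psmb9* by 3.66-fold (−1.87, −1.99 to −1.75) and *Psmb10* by 1.47-fold (−0.56, −0.64 to −0.47). The first 2 were over 2-fold lower, as were 5.27% of genes. Here too *Psmb9*, under 20 CPM in *LApcL*, was tested through 1 side, its *LApc* cells.

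The activators *Psme1* (244 CPM in *LApc* and 160 in *LApcL*, −0.61) and *Psme2* (299 and 207, −0.53) were also lower, with *Psmd10*, the 19S chaperone gankyrin (45.2 and 36.0, −0.33), the 3 lowest outside the immune group. The highest were *Psmg3* (54.0 and 78.4 CPM, 0.54), *Psmg1* (41.5 and 56.1, 0.43) and *Psme3* (70.5 and 94.5, 0.42). The retrogene copy *Psme2b* was at 10.4 and 4.99 CPM, under the minimum for testing. The inhibitor *Psmf1* was at 28.5 and 30.2 CPM, with an interval of the log2 ratio from −0.09 to 0.26.

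The difference in the immune subunits was present in each of the 5 adenoma subclusters, which differ in what leads them. In the subcluster led by *S100g* and *Myl9*, *Psmb8* was 164 CPM in *LApc* and 22.3 in *LApcL*. In those led by *Myl7*, *Atp4a* and *Wfdc18* it was 60.5 and 19.3, 111 and 32.0, and 157 and 52.1. In the fifth, led by *Gzma* and *Ccl5*, it was 221 and 38.2. Immune cell markers summed to 5148 CPM in the *LApc* cells of that subcluster and to 74.6 in its *LApcL* cells. The part of immune cell RNA in its values was not tested. *Psmb9* ran from 39.5 to 94.7 CPM in *LApc* and from 16.2 to 34.3 in *LApcL*, and *Psmb10* from 123 to 145 and from 78.1 to 115. The gap between the ranges of the 2 libraries was narrow for all of them, with *Psmb8* down to 60.5 CPM in *LApc* and up to 52.1 in *LApcL*. The lowest *Psmb9* value in *LApc* rests on 60 UMIs. How many of all genes separate in this way was not counted, and subclusters of 1 mouse are not replicates.

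Among crypt cells, *Psmb8* was highest in the subcluster led by the antimicrobial genes *Reg3g* and *Reg3b*, with 387 CPM in WT against 185 in *LApc* and 214 in *LApcL*. That led by the stem cell genes *Olfm4* and *Lgr5* held 112, 126 and 101 CPM, and the largest, led by *Rbp7*, held 93.4, 150 and 100.01. The immune share over the 3 pairs in the *Reg3g* subcluster was 47.2% in WT, 38.7% in *LApc* and 41.1% in *LApcL*.

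**Figure D4:**
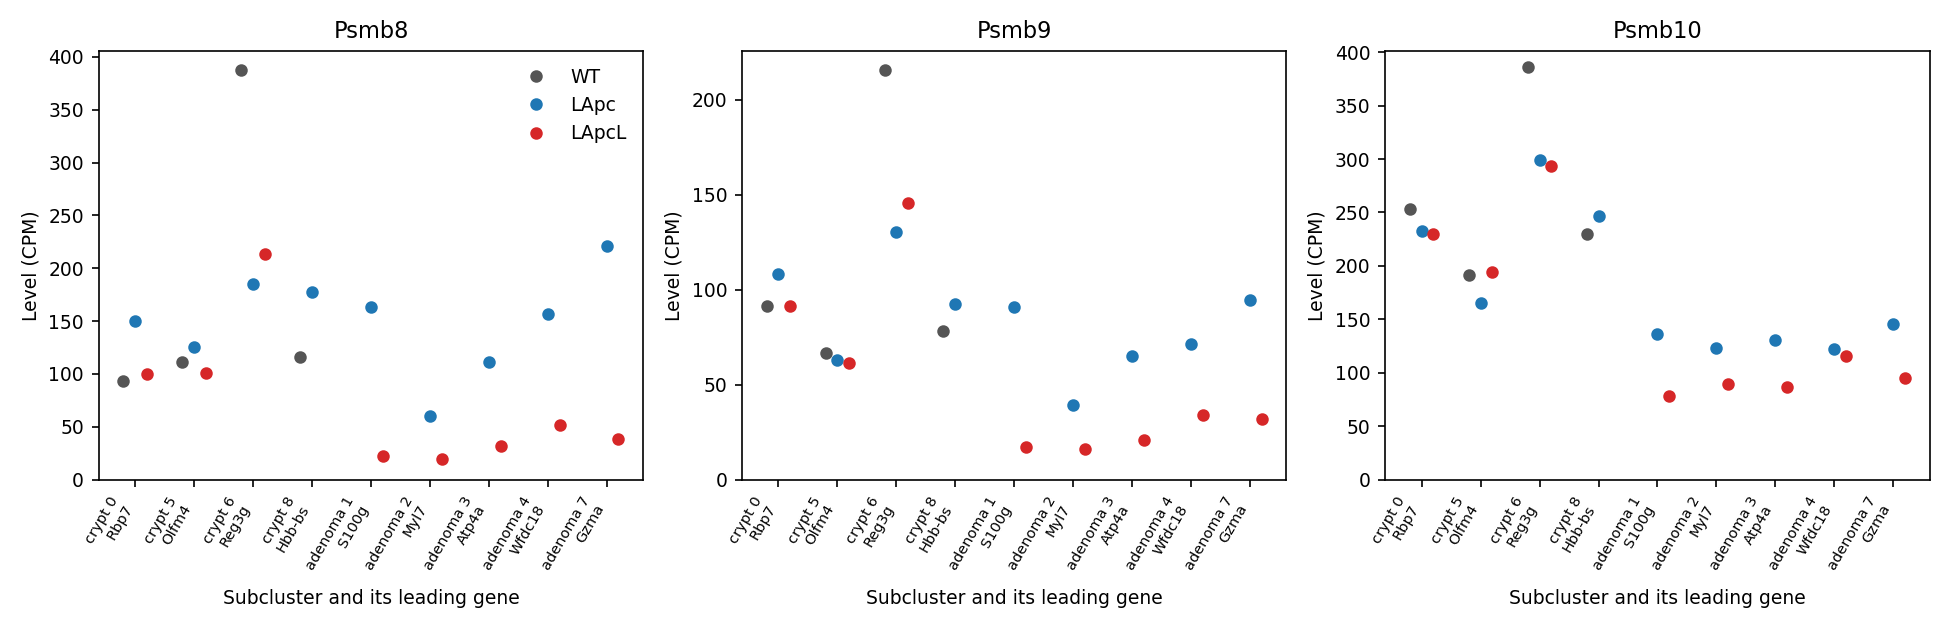
Level in CPM (y axis) of *Psmb8*, *Psmb9* and *Psmb10* in each subcluster of crypt and adenoma cells, named by its leading gene (x axis), with points for WT, *LApc* and *LApcL*. In all 5 adenoma subclusters the *LApcL* point lies below the *LApc* point, and the highest *Psmb8* value is 387 CPM in the WT *Reg3g* subcluster. The *LApc* cells of the *Gzma* subcluster held immune cell markers at 5148 CPM.

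RNA of immune cells, which express these subunits strongly, was higher in *LApc* adenoma cells. The 16 immune cell markers summed to 187 CPM there and to 4.81 in *LApcL* adenoma cells, with 1.78, 14.4 and 1.61 in WT, *LApc* and *LApcL* crypt cells. In *LApc* adenoma cells *Gzma* was 94.2 CPM, *Cd52* 18.2, *Gzmb* 15.7, *C1qa* 12.3 and *Ptprc*, the defining leukocyte gene, 2.58, and *Ms4a1* had no UMI in adenoma or crypt cells. The *Gzma* subcluster held most of it, with a marker sum of 5148 CPM in its 77 *LApc* cells. At least 1 marker UMI was present in 84 of 1305 *LApc* and 174 of 9494 *LApcL* adenoma cells. With those cells left out, an alternative chosen after the data were seen, the log2 ratio of *LApcL* over *LApc* was −2.34 for *Psmb8*, −1.83 for *Psmb9* and −0.55 for *Psmb10*, nearly as large as before. RNA of immune cells that yielded no marker UMI may remain, and its part in the difference was not tested.

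Genes that act with the immune subunits were lower in *LApcL* adenoma cells too. The list held 12 interferon and class I genes, and counts of it are over genes at 20 CPM or more in both sets, so that none enters through its higher side alone. Between the adenoma cells of both mice 5 were at that level and all 5 were lower in *LApcL* past the 25% limit, where 18.7% of 5043 genes were lower and 12.3% higher. *B2m*, the light chain of class I, was 1051 CPM in *LApc* and 242 in *LApcL*, and the heavy chains *H2-K1* and *H2-D1* were 667 and 194 and 920 and 269. *Tapbp*, which holds class I molecules at the peptide pump, was 103 and 41.2 CPM, and the interferon gamma receptor *Ifngr1* 56.7 and 35.5. Below that level in *LApcL*, and so outside the count, *Tap1* was 30.7 and 5.77 CPM, the factor *Irf1* 36.6 and 18.4, and the GTPases *Gbp2* and *Irgm1* 39.1 and 0.99 and 43.8 and 7.32.

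These partners did not move with the immune subunits in every comparison. In *LApc*, 5 of 7 were higher in adenoma than in crypt cells, beside 33.7% of 4672 genes, and 1, *Ifngr1*, was lower, beside 17.8%, although *Psmb9* and *Psmb10* were lower. In *LApcL*, 0 of 5 were higher, beside 31.5% of 4542 genes, and 2 were lower, beside 9.93%, namely *B2m* (640 and 242 CPM in crypt and adenoma) and *Ifngr1* (77.3 and 35.5). *H2-D1* in that mouse was 243 and 269 CPM. Without cells that held an immune marker UMI, *B2m* was 1034 CPM in *LApc* adenoma cells and 242 in *LApcL*.

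**Figure D5:**
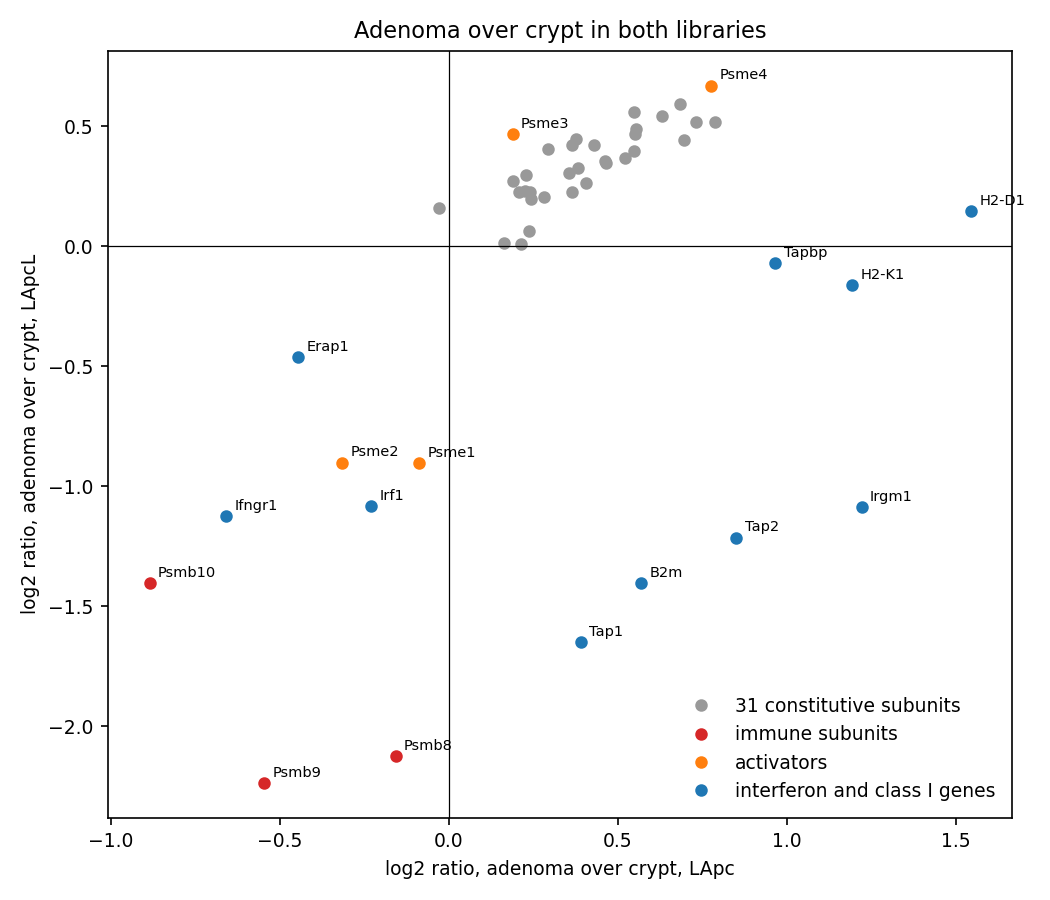
Log2 ratio of adenoma over crypt cells in *LApc* (x axis) against the same ratio in *LApcL* (y axis), with 1 point per gene for the constitutive subunits, the immune subunits, the activators and 10 of the 12 interferon and class I genes, *Nlrc5* and *Gbp2* being left out for low counts. The constitutive subunits lie above 0 on both axes except *Psma5*, at −0.03 in *LApc*, while *B2m* lies at 0.57 and −1.40.

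Of 25 genes that mature, regulate or feed the proteasome 22 were tested. In *LApc* 11 were higher in adenoma than in crypt cells and 1 lower, beside 38.5% and 18.9% of all genes. In *LApcL* 8 were higher, a share near the 34.4% of all genes, and 0 lower, beside 11.5%. *Adrm1*, a ubiquitin receptor of the 19S base, was 63.4 CPM in crypt and 114 in adenoma cells of *LApc* and 63.5 and 99.6 in *LApcL*. *Zfand5*, a proteasome activator, was 54.5 and 136 CPM and 58.1 and 87.4, and *Pomp*, the chaperone of beta ring maturation, 315 and 437 and 294 and 373.

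Between the adenoma cells of both mice 1 of the 22, *Uchl5* (52.0 CPM in *LApc* and 67.1 in *LApcL*), was higher in *LApcL* and 4 were lower, among them *Zfand5* and the ubiquitin gene *Ubb* (2009 and 1422). Both counts are smaller shares than the 12.6% and 22.6% of all genes. *Nfe2l1*, which drives transcription of subunit genes when the proteasome is inhibited, was 30.6 CPM in crypt and 38.8 in adenoma cells of *LApc* and 25.4 and 30.2 in *LApcL*. *Nfe2l2*, a stress factor, was 105 and 108 CPM and 84.3 and 83.1.

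Within each set of crypt or adenoma cells the constitutive sum was higher in cycling cells. In cells with 1000 CPM or more of 14 cell cycle genes the sum was 6680 CPM in WT crypt, 7631 in *LApc* adenoma and 7424 in *LApcL* adenoma cells, and in the other cells it was 6050, 6698 and 6978. Cycling cells made up 66.6% of crypt and 37.9% of adenoma cells in *LApc* and 67.0% and 59.5% in *LApcL*, with the higher sum in adenoma cells. In WT they made up 78.2% of crypt cells and 8.20% of enterocytes, with the higher sum in crypt cells. The immune sum in *LApcL* adenoma cells was 127 CPM in cycling and 145 in other cells, and in crypt cells of that mouse 463 and 368. The part of cycling in the differences between classes was measured only through the cells with little cell cycle expression.

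Finally, crypt cells of the mutant mice were compared with those of WT. The constitutive sum was lower than in WT in both mutants, with a log2 ratio of −0.23 (−0.24 to −0.22) for *LApc* crypt cells and −0.16 (−0.17 to −0.15) for those of *LApcL*, and stayed lower in all 11 alternatives. In *LApc* 0 of 31 were higher and 5 lower past the 25% limit, beside 10.7% and 10.6% of 5066 genes, with a median log2 ratio of −0.25 against −0.02 for all genes. The number lower was 20 with TMM, 13 with each cell given equal weight and 15 in cells with little cell cycle expression. No share of all genes called lower stands beside these counts. In *LApcL* 0 were higher and 0 lower, beside 5.99% and 13.6% of 4922 genes, with medians of −0.17 and −0.08.

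The lowest ratios in *LApc* were *Psmd6*, a lid subunit (93.0 CPM in WT and 63.8 in *LApc*, −0.54), *Psma4* (311 and 220, −0.50) and the ATPase *Psmc3* (167 and 125, −0.42), and the highest *Psmd9* (39.0 and 41.8, 0.10), *Psma5* (259 and 271, 0.07) and *Psme4* (36.8 and 36.4, −0.02). In *LApcL* the lowest were *Psmd6* (75.5 CPM, −0.30), *Psmd10* (39.0 in WT and 31.8, −0.29) and *Psmg3* (87.6 and 72.5, −0.27), and the highest were *Psmd3* (91.1 and 94.5, 0.05), *Psmg4* (92.2 and 93.7, 0.02) and *Psme1* (297 and 300, 0.01). *Psmd6* was the lowest in both, and both ratios use the same WT cells.

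The immune subunits differed little in crypt cells. *Psmb8* was higher in *LApc* than in WT (log2 ratio 0.32, 0.24 to 0.39), *Psmb9* was within counting error (0.06, −0.02 to 0.15) and *Psmb10* was lower (−0.12, −0.17 to −0.06). In *LApcL* the ratios were −0.11, −0.12 and −0.16, and those of *Psmb8* and *Psmb9* each turned above 0 in 1 of 11 alternatives, at 0.0018 without ribosomal and mitochondrial genes in the total and 0.02 with classes from marker scores. The large difference of the immune subunits in *LApcL* was thus seen against crypt cells of its own mouse and against *LApc* adenoma cells, with crypt cells of the 3 mice at 438 to 496 CPM.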

How the data were processed

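Single cell libraries from 3 mice were made with a 10x 3′ kit, version v2 or v3, which is not given per library. The authors processed the reads with Cell Ranger 2.1.1 on GRCm38 (mm10) and deposited matrices of raw UMI counts per gene and barcode for 27998 genes. Here barcodes with over 20% mitochondrial UMIs or in the outer 1% of gene counts were removed. Scrublet (in scanpy 1.11.5) scored doublets. Its automatic limit marked 2875, 3 and 2091 barcodes in WT, *LApc* and *LApcL*, so the highest 0.8% per 1000 barcodes were removed instead (961, 1117 and 2235).

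Libraries were integrated by anchors and cells clustered on 620 variable genes, without the proteasome, pathway and interferon lists, in Seurat 5.3.0 (R 4.3.3) with 20 components at resolution 0.2. Clusters were named from markers, and Wnt and transit-amplifying cells were subclustered at 0.4 after mutual nearest neighbour correction (53 neighbours). Counts were summed per library and class and scaled to CPM. Intervals were exact Poisson, exact conditional binomial for ratios and Clopper-Pearson for shares (scipy 1.17.1). Only the interval for ratios was tested on simulated data, which were Poisson counts. Other scalings (TMM from edgeR 4.0.16), filters and classes were tried as alternatives. All members were named by role. Full values were given for the immune subunits, their counterparts, and the 3 highest and 3 lowest other members in each of the 6 comparisons. The members and lists were chosen with earlier results of these data known. Promoters came from RefSeq tables, and *Psmb7* was not in them. Some genes of the lists are not reported here and are left out of every count.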

Additional observations from a re-analysis of the deposited data

Results flagged for a closer look

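Among the members and listed genes tested in at least 1 of the mutant mice, 5 had ratios of adenoma over crypt cells in opposite directions in *LApc* and *LApcL*, with counting intervals clear of 0 in both. The difference between the mice was not tested, since each genotype has 1 library. The same was not counted over all genes, so whether 5 is unusual cannot be told. On the log2 scale the chaperone *Psmg3* was at −0.40 in *LApc* and 0.11 in *LApcL*, *Tap1* at 0.39 and −1.65, *B2m* at 0.57 and −1.40, *H2-K1* at 1.19 and −0.16, and *Irgm1* at 1.22 and −1.09. *Tap1* and *Irgm1* were under the minimum for testing in *LApcL*. In *LApc*, *Irgm1* reached that minimum through its adenoma cells, with 18.8 CPM in crypt and 43.8 in adenoma cells. *Tap2* (0.85 and −1.21) and *Nlrc5* (0.98 and −1.98), under it in both mice, also lay on opposite sides. The immune subunits are not among them, as all 3 were lower in adenoma cells of both mice.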

How the results depend on the processing

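Each comparison was repeated under 10 or 11 alternatives, of which leaving out cells with an immune marker UMI was chosen after the data were seen. Of 75 values that answer a comparison, 60 stayed within their error or within 1.5 times and 15 moved. Without ribosomal and mitochondrial genes in the total, the constitutive subunits past the 25% limit in adenoma over crypt cells numbered 10 in *LApc* and 6 in *LApcL*. With TMM they numbered 5 and 6, with 8 higher in *LApcL* than in *LApc* adenoma, 20 lower in *LApc* than in WT crypt cells and 5 higher in WT crypt cells than in enterocytes. With each cell of equal weight 13 were lower in *LApc* crypt cells. In cells with little cell cycle expression 15 were lower there and 11 were higher in WT crypt cells than in enterocytes. With adenoma cells taken as whole clusters 9 were higher in *LApcL*. A mitochondrial limit of 10% gave 14 for crypt over enterocyte and 6598 CPM for the sum in WT crypt cells. The counts of subunits in this paragraph have no share of all genes beside them, apart from the TMM shares given above. The immune share in *LApcL* adenoma cells was 11.02% without doublet removal and 10.6% with classes from marker scores, against 10.8%.

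Single genes and sums gave 296 values that stayed, 152 that moved and 7 that changed direction. The last were, on the log2 scale and without ribosomal and mitochondrial genes, *Psmb8* at 0.0018 and *Psme2* at 0.0252 in *LApcL* over WT crypt cells and *Psme1* at 0.14 in crypt over enterocyte. With marker scores *Psmb9* was at 0.0225 in *LApcL* over WT crypt cells. In cells with little cell cycle expression *Psmb8* was at 0.11 and *Psme1* at 0.0060 in *LApc* adenoma over crypt. With TMM the immune sum was at −0.0381 in *LApc* over WT crypt cells. The causes were not tested.

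No paired analysis was possible because each group has 1 library, and for the same reason none was left out. The *LApc* library was the shallowest, at 62634719 UMIs against 121933074 and 156283142, and its 72 tuft and 141 Paneth cells gave the widest intervals. Cell classes were rebuilt from markers and are not those of the study.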
